A study of Mus musculus with 9 samples.

Results

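The 10 genes described here move lactate, pyruvate and glucose across membranes or interconvert lactate and pyruvate. They were chosen by name from the 49315 gene IDs of the count table. The monocarboxylate transporter genes are Slc16a1, Slc16a3 and Slc16a7 (proteins MCT1, MCT4 and MCT2), and Bsg is the chaperone gene of MCT1 and MCT4. The others are the lactate dehydrogenase genes Ldha and Ldhb, the mitochondrial pyruvate carrier genes Mpc1 and Mpc2, and the glucose transporter genes Slc2a1 and Slc2a3 (GLUT1 and GLUT3). All 10 had reads in the table. The study asked how SB28 tumor cells that had taken up astrocyte mitochondria differed from those that had not. RNA was sequenced from 9 libraries, 3 for each population sorted from untreated co-cultures that had lasted 2 days: SB28 cells without the red signal of astrocyte mitochondria (mKate2- SB28), SB28 cells with it (mKate2+ SB28) and the astrocytes themselves. SB28 is a GFP+ mouse GBM cell line on the C57BL6 background, so every tumor library came from 1 line. The astrocytes were primary neonatal cells of C57BL6 (mito::mKate2) mice, which carry a mitochondria-targeted red fluorescent protein under the ubiquitous CAG promoter. Per the labels, all cells shared DMEM F12 medium with 2% FBS, N2 supplement, EGF and FGF. The study's methods name a medium of the same base with a higher share of serum, so the serum level is uncertain. No SB28 or astrocyte culture grown alone was analysed here. The 3 replicates of a population came from distinct co-cultures, and the 3 populations were sorted from the same co-cultures, so their libraries are not independent of each other.

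MCTs carry lactate or pyruvate together with a proton. MCT1 and MCT4 reach the plasma membrane with the help of basigin, the product of Bsg. MCT4 is best known from cells that release much lactate and is a classical hypoxia target, MCT1 is widespread and works in either direction, and MCT2 has a high affinity for its substrates and in brain is known mainly from neurons. Lactate dehydrogenase is a tetramer of LDHA and LDHB subunits; LDHA-rich forms are known from glycolytic tissue and LDHB-rich forms from oxidative tissue. MPC1 and MPC2 form the carrier that brings pyruvate into mitochondria. GLUT1 is the general glucose transporter of brain barrier cells, glia and tumors, and GLUT3 is a high-affinity transporter known best from neurons.

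Astrocyte libraries held 24454561 to 35135662 counts in total, mKate2- libraries 27187348 to 35891589 and mKate2+ libraries 34175016 to 39287841. Levels are given as CPM, a gene's counts scaled to the library's total, as mean ± SD over 3 libraries, and levels of different members are compared only after division by exonic length (CPM per kb). The sums of marker lists, and the gene that leads a list, are by counts without division by length. Differences between populations are log2 fold changes with their standard error (SE) from edgeR's quasi-likelihood test, with Benjamini-Hochberg adjusted P values over all genes tested. Being bulk samples, the libraries cannot tell fewer cells of a type from less RNA per cell.

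The names of the populations were checked against cell type markers. Slc1a3, a glutamate transporter of astrocytes, was at 172.8, 176.9 and 235.6 CPM in astrocyte replicates 1 to 3 and between 0.56 and 2.38 CPM in the 6 SB28 libraries. Of 14 astrocyte markers, 8 were below 2% of their astrocyte level in both SB28 populations. Others were not: in mKate2- and mKate2+ cells Sox9 was at 52.6% and 49.1% of its astrocyte level and Glul at 30.3% and 32.7%. S100b was at 28.2% and 24.3% and Aldh1l1 at 5.2% and 5.0%. Gja1 was higher in SB28 cells, with means of 264.5 and 276.1 CPM against 198.5 CPM in astrocytes. The summed level of the list was 1139, 1130 and 1758 CPM in the astrocyte libraries, led by Apoe or Aldoc, and 370.7 to 447 CPM in SB28 libraries, where the gap junction gene Gja1 led with 240.8 to 284.2 CPM. Gjb6 had 0 counts in every library, which allows at most 0.0764 to 0.123 CPM, and the mean of Gfap in astrocytes was only 10.6 ± 8.15 CPM. Astrocyte replicate 3 stood apart for genes of mature astrocytes: Aldoc was at 361.8 CPM there against 55.6 and 33.8 CPM in replicates 1 and 2, Aqp4 at 59.7 against 5.64 and 6.82 CPM, and Slc1a2 at 56.8 against 4.46 and 11.3 CPM.

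Markers of other cell types also differed between the populations. The list of 8 oligodendrocyte lineage markers summed to 847.2, 444.3 and 507.9 CPM in astrocyte libraries and to 17.1 to 27.0 CPM in SB28 libraries. Olig1 led it in astrocytes with 541, 241.3 and 304.2 CPM, whereas Sox10 and Mog averaged 0.0204 and 0.0747 CPM there. The 8 microglia markers summed to 29.0 to 40.7 CPM in astrocytes and 47.6 to 61.3 CPM in SB28 cells, nearly all of it Tmem119, and Cx3cr1 and Trem2 were at or near 0 in all libraries. The 7 neuron markers summed to 27.9, 57.5 and 54.1 CPM in astrocytes and to 19.9 to 27.1 CPM in SB28 cells, with Stmn2 at 11.5, 43.4 and 38.5 CPM in astrocytes and Rbfox3 at 0 in every library. The 7 endothelial and mural markers, led by Pdgfrb, summed to 78.5 to 90.5 CPM in astrocytes and 47.9 to 64.9 CPM in SB28 cells, and Cldn5 was at 0 in the astrocyte libraries. The 5 fibroblast markers, led by Col1a2, summed to 1016 to 1457 CPM in astrocytes and 501.7 to 768 CPM in SB28 cells. The part of these cells in the results below was not tested.

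The MCT genes Slc16a1 and Slc16a3, which were called in opposite directions, and the subunit genes Ldha and Ldhb, of which only Ldhb was called, are shown first by the 250 bases before their transcription starts. These pairs were chosen because both genes of each had a RefSeq window and the windows differ in short motifs of known metabolic regulators. The sequences are RefSeq's for GRCm38.p6, read 5′ to 3′ on the strand of the gene. Capitals mark ACGTG, the core of the hypoxia response element, on either strand (CACGT where it lies on the other strand), and CACGTG, the E-box bound by factors such as MYC, which holds that core on both strands.
Slc16a1 (chr3:104638414-104638663, plus strand): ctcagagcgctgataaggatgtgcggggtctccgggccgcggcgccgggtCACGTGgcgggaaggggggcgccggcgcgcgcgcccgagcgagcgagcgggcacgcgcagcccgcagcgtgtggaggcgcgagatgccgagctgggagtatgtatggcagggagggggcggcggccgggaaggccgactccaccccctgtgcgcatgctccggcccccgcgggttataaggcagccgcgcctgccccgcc
Slc16a3 (chr11:120948817-120949066, plus strand): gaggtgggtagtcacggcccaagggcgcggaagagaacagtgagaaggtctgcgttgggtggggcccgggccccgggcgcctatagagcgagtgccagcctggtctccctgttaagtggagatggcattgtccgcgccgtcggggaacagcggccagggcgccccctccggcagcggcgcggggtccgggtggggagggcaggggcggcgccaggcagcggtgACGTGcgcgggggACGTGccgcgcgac
Ldha (chr7:46845554-46845803, plus strand): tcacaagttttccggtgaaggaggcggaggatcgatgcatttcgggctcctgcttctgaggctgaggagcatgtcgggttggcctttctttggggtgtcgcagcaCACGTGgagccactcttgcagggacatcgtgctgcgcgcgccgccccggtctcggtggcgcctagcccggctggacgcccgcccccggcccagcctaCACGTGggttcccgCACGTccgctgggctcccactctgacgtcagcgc
Ldhb (chr6:142507958-142508207, minus strand): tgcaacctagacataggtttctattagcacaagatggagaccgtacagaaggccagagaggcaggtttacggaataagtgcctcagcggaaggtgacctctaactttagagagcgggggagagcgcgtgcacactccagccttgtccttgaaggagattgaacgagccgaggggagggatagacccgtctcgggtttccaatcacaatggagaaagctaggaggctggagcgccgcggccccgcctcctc
Slc16a1 held 1 E-box and 2 core matches, both inside that E-box, and Slc16a3 held 2 hypoxia cores and no E-box. Ldha held 2 E-boxes and 5 core matches (4 of them inside the E-boxes), and Ldhb held neither. Across 32851 windows of the same length, 16.6% held ACGTG and 6.02% held CACGTG. A second Ldha window, both Mpc1 windows and the Mpc2 window held no ACGTG, and the Slc2a1 window held 1. The GC box GGGCGG, on either strand, was in 32.7% of all windows and in those of Slc16a1, Slc16a3, Ldha, Mpc1, Mpc2 and Slc2a1, but not in the second Ldha window or that of Ldhb. Of the 10 genes, 7 matched a window; Slc16a7, Bsg and Slc2a3 did not. These matches describe letters in a window and say nothing of binding.

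Among the 10 genes, Slc16a1, Ldha and Slc2a1 had the highest level per kb of the MCT, dehydrogenase and glucose transporter genes in both cell types, and Slc16a3, Slc16a7, Ldhb and Slc2a3 were lower in SB28 cells than in astrocytes. Of the 10 genes, 1 (Slc16a1) was called higher and 4 (Slc16a3, Slc16a7, Ldhb and Slc2a3) lower in mKate2- SB28 cells than in astrocytes when the adjusted P value had to be below 0.05 and the change more than 1 on the log2 scale, where 11.5% of the 13356 genes tested were called higher and 22.4% lower. In mKate2+ SB28 cells against the same astrocyte libraries, the same 5 genes were called in the same directions, against 12.2% of 13342 genes called higher and 22.8% lower. By the adjusted P value alone, 2 members were higher and 6 lower in mKate2- cells (29.3% and 33.8% of all genes), and 2 were higher and 4 lower in mKate2+ cells (28.0% and 32.1%). Over the 10 genes, log2 fold changes had a median of -0.76 for mKate2- cells and -0.45 for mKate2+ cells, beside -0.04 and -0.02 for all genes tested; without mKate2+ replicate 2 the median for mKate2+ cells was -0.72. These 2 comparisons share the astrocyte libraries and are given side by side, not as independent evidence.

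**Figure D1:**
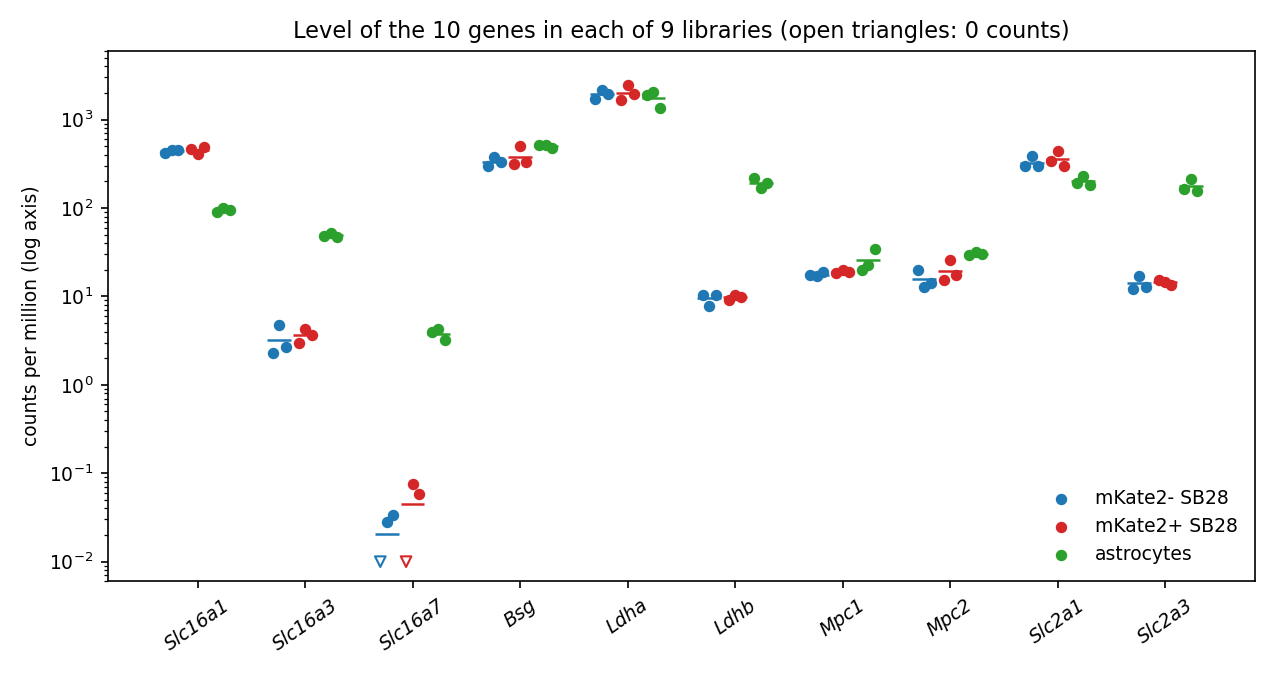
Level of each gene in CPM (log axis) in the 9 libraries, with 1 point per library, colored by population, a line at the mean of 3 libraries and open triangles for libraries with 0 counts. SB28 points lie above the astrocyte points for Slc16a1 and Slc2a1, far below them for Slc16a3, Slc16a7, Ldhb and Slc2a3, and among them for Ldha.

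Slc16a1 (ENSMUSG00000032902, chr3:104638668-104658462, plus strand) had the highest level per kb of the 3 MCT genes in both cell types and was higher in SB28 cells. It was at 415.9, 456.3 and 453.8 CPM in mKate2- replicates 1 to 3, at 467.4, 403.5 and 486.8 CPM in mKate2+ replicates and at 89.6, 100.8 and 93.8 CPM in astrocytes. Every SB28 library was above every astrocyte library. The log2 fold change against astrocytes was 2.24 (SE 0.10, edgeR adjusted P = 6.62e-06) for mKate2- cells and 2.33 (SE 0.12, edgeR adjusted P = 9.69e-06) for mKate2+ cells.

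Slc16a3 (ENSMUSG00000025161, chr11:120948480-120960868, plus strand), the gene of the lactate exporter MCT4, ran the other way. Its levels were 2.32, 4.76 and 2.65 CPM in mKate2- libraries, 2.94, 4.33 and 3.66 CPM in mKate2+ libraries and 47.6, 52.1 and 47.3 CPM in astrocytes. The SB28 means were 6.62% and 7.43% of the astrocyte mean, and neither SB28 population overlapped with the astrocytes. The log2 fold changes were -3.89 (SE 0.28, edgeR adjusted P = 2.66e-05) and -3.67 (SE 0.20, edgeR adjusted P = 1.27e-05).

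Slc16a7 (ENSMUSG00000020102, chr10:125219270-125389465, minus strand), the gene of MCT2, was near the limit of detection in SB28 cells. It had 0, 1 and 1 counts in mKate2- libraries and 0, 3 and 2 counts in mKate2+ libraries, and 96, 139 and 112 counts in astrocytes (3.93, 4.25 and 3.19 CPM). A library with 0 counts allows up to 0.11 CPM in mKate2- replicate 1 and 0.0832 CPM in mKate2+ replicate 1. Summed over libraries, the astrocyte level was 174.7 times that of mKate2- cells (95% counting interval 47.99 to 1448) and 82.35 times that of mKate2+ cells (34.95 to 255.2), intervals that cover counting error only. The edgeR adjusted P values were 3.27e-05 and 0.000174. Slc16a7 passed the filter on low counts only through the astrocyte libraries, so the filter set the direction of its call. As a percentage of the astrocyte level, Slc16a7 was at 0.57% (95% counting interval 0.0691% to 2.08%) in mKate2- cells and 1.21% (0.392% to 2.86%) in mKate2+ cells.

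Bsg (ENSMUSG00000023175, chr10:79704491-79711969, plus strand), the chaperone of MCT1 and MCT4, was abundant in both cell types. It was at 300.3, 376.7 and 329.1 CPM in mKate2- libraries, 314.7, 500.7 and 329.9 CPM in mKate2+ libraries and 512.4, 515.8 and 473.8 CPM in astrocytes. All mKate2- libraries were below the astrocyte libraries, but mKate2+ replicate 2 reached into their range. Bsg was lower in mKate2- cells (log2 fold change -0.56, SE 0.12, edgeR adjusted P = 0.00479). In mKate2+ cells the difference missed the threshold with all libraries (-0.31, SE 0.21, edgeR adjusted P = 0.247) and passed it without replicate 2 (-0.59, edgeR adjusted P = 0.00854).

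The 2 lactate dehydrogenase genes behaved differently from each other. Ldha (ENSMUSG00000063229, chr7:46841475-46855627, plus strand), the subunit gene of glycolytic tissue, had the highest level per kb of the 10 genes in all 3 populations. It was at 1687, 2178 and 1933 CPM in mKate2- libraries, 1664, 2439 and 1947 CPM in mKate2+ libraries and 1894, 2033 and 1363 CPM in astrocytes, and the populations overlapped. The log2 fold changes of 0.15 (SE 0.19, edgeR adjusted P = 0.523) and 0.28 (SE 0.23, edgeR adjusted P = 0.319) were near the size of their errors. The lowest of the 9 values was astrocyte replicate 3, and without it the log2 fold changes were -0.02 for mKate2- cells and 0.10 for mKate2+ cells. The latter was 0.08 without mKate2+ replicate 2.

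Ldhb (ENSMUSG00000030246, chr6:142490249-142507957, minus strand), the subunit gene of oxidative tissue, was high in astrocytes and low in SB28 cells. Its levels were 10.3, 7.86 and 10.3 CPM in mKate2- libraries, 9.07, 10.3 and 9.89 CPM in mKate2+ libraries and 215.7, 170 and 190.1 CPM in astrocytes. Both SB28 populations were wholly below the astrocytes, at 4.94% and 5.08% of the astrocyte mean. The log2 fold changes were -4.33 (SE 0.17, edgeR adjusted P = 4.48e-06) and -4.22 (SE 0.16, edgeR adjusted P = 5.25e-06), the largest in size of the members apart from Slc16a7.

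The mitochondrial pyruvate carrier genes had log2 fold changes against astrocytes between -0.95 and -0.35. Mpc1 (ENSMUSG00000023861, chr17:8282904-8297661, plus strand) was at 17.3, 17.0 and 18.7 CPM in mKate2- libraries, 18.2, 19.7 and 19.1 CPM in mKate2+ libraries and 19.8, 22.6 and 34.4 CPM in astrocytes. The astrocyte libraries were all higher, but the lowest of them only just, and replicate 3 was well above the others. The fold changes missed the threshold (-0.52, SE 0.20, edgeR adjusted P = 0.0559, and -0.35, SE 0.22, edgeR adjusted P = 0.194); the first passed it under 6 of the 13 alternatives, with adjusted P values of 0.0183 to 0.0443, and without astrocyte replicate 3 the values were -0.26 and -0.11. Mpc2 (ENSMUSG00000026568, chr1:165460637-165481214, plus strand) was at 19.7, 12.9 and 14.3 CPM, 15.4, 25.8 and 17.4 CPM, and 29.7, 32.0 and 30.0 CPM in mKate2- libraries, mKate2+ cells and astrocytes. It was lower in mKate2- cells (-0.95, SE 0.18, edgeR adjusted P = 0.00215), and it went past -1, and so was called, with upper-quartile normalization (-1.03), with at least 10 counts in every library (-1.03) and without mKate2- replicate 1 (-1.15). The difference for mKate2+ cells was -0.56 (SE 0.23, edgeR adjusted P = 0.0651). It passed the threshold under 5 of the 13 alternatives, with adjusted P values of 0.00366 (without mKate2+ replicate 2, at -0.85) to 0.0469 (DESeq2).

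Of the glucose transporter genes, Slc2a1 was higher and Slc2a3 lower in SB28 cells. Slc2a1 (ENSMUSG00000028645, chr4:119108711-119137983, plus strand) was at 297.7, 385 and 294.6 CPM in mKate2- libraries, 343, 437.1 and 297 CPM in mKate2+ libraries and 189.2, 232.4 and 183.1 CPM in astrocytes. Neither SB28 population overlapped with the astrocytes, and the log2 fold changes of 0.71 (SE 0.15, edgeR adjusted P = 0.00423) and 0.92 (SE 0.19, edgeR adjusted P = 0.00460) stayed below 1. Slc2a3 (ENSMUSG00000003153, chr6:122727809-122801640, minus strand) was at 12.03, 17.2 and 12.9 CPM, 15.4, 14.6 and 13.4 CPM, and 164.8, 211.2 and 156.8 CPM in the same order. Its SB28 means were 7.90% and 8.14% of the astrocyte mean, with log2 fold changes of -3.64 (SE 0.19, edgeR adjusted P = 8.73e-06) and -3.54 (SE 0.16, edgeR adjusted P = 6.88e-06).

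**Figure D2:**
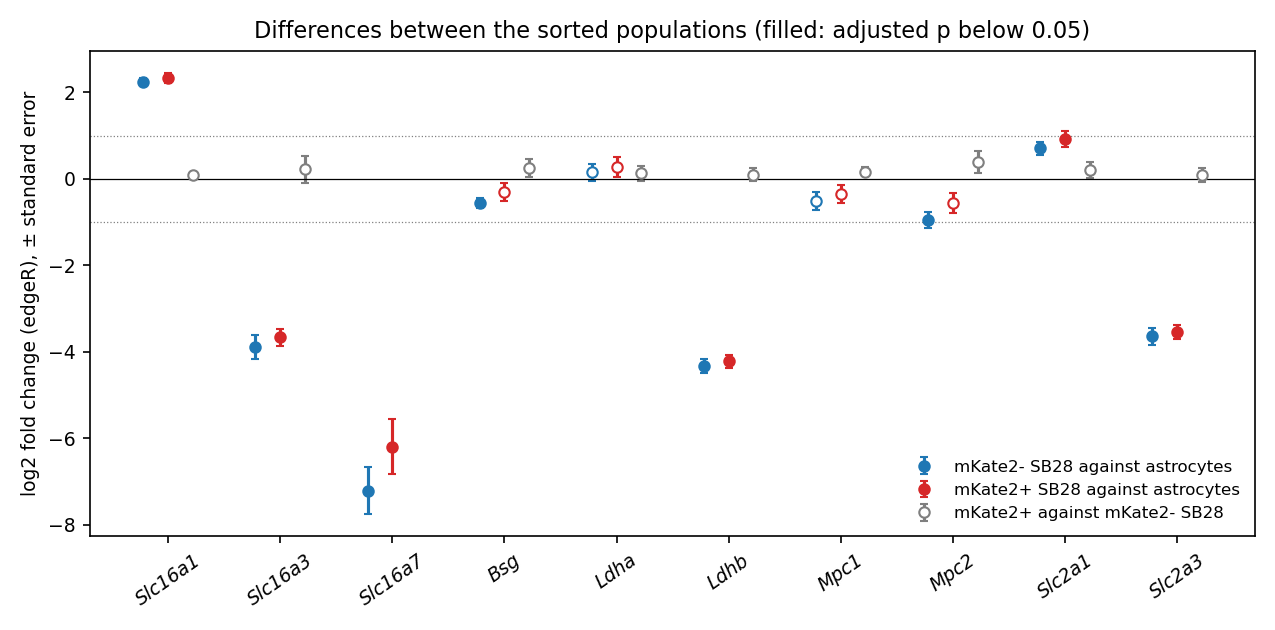
Log2 fold change with its standard error (edgeR, 6 libraries per comparison) for the 10 genes, with 1 color per comparison and filled points where the adjusted P value was below 0.05. Against astrocytes the points run from -7.21 (Slc16a7, a value that depends on few counts) to 2.33 (Slc16a1), whereas the gray points for mKate2+ against mKate2- cells are all open and lie between 0.08 and 0.39.

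Some calls of small differences changed when a gene length trend was removed. Removing a trend with exonic length from each library also moved the median log2 fold change over all genes. It went from -0.04 to 0.44 for mKate2- cells and from -0.02 to 0.47 for mKate2+ cells. In that setting Ldha passed the threshold (0.60, edgeR adjusted P = 0.0207, and 0.71, edgeR adjusted P = 0.0227) and Slc2a1 exceeded 1 (1.16 and 1.35), while Bsg no longer passed in mKate2- cells (-0.07, edgeR adjusted P = 0.648) and Bsg and Mpc1 changed sign in mKate2+ cells (0.08 and 0.10). Mpc2 was at -0.50 in mKate2- cells (edgeR adjusted P = 0.0487) and -0.02 in mKate2+ cells. Relative to the median of all genes, Ldha was at 0.18 and 0.29 with the trend left in and at 0.16 and 0.24 with it removed. Bsg went from -0.53 and -0.29 to -0.51 and -0.39, and Mpc1 from -0.48 and -0.33 to -0.45 and -0.37. Mpc2 went from -0.91 and -0.54 to -0.94 and -0.49, and Slc2a1 from 0.75 and 0.935 to 0.71 and 0.88. Measured so, no sign changed among these genes and Slc2a1 stayed below 1. Slc16a1, Slc16a3, Ldhb and Slc2a3 kept their calls and directions, as did Slc16a7, whose direction the filter on low counts had set. Over all genes, the same step turned 1531 higher and 2994 lower calls for mKate2- cells into 3446 and 2329, and 1634 and 3041 for mKate2+ cells into 3700 and 2338.

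The isoform genes of each family were next compared as shares of their summed CPM per kb within a library. Slc16a1 made up 99.5%, 99.1% and 99.5% of the 3 MCT genes in mKate2- libraries, 99.5%, 99.1% and 99.4% in mKate2+ libraries and 68.6%, 69.2% and 69.8% in astrocytes. Ldhb made up 1.05% ± 0.26 and 1.03% ± 0.13 of the 2 dehydrogenase genes in mKate2- and mKate2+ cells (SD, n = 3) and 19.4%, 15.0% and 22.7% in the astrocyte libraries. Slc2a3 made up 2.03% ± 0.10 and 1.95% ± 0.32 of the 2 glucose transporter genes in the SB28 populations and 29.7%, 30.6% and 29.3% in astrocytes. These 3 shares separated SB28 cells from astrocytes without overlap.

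The differences in share from astrocytes were 30.2 and 30.1 percentage points for Slc16a1, -18.0 and -18.0 for Ldhb, and -27.8 and -27.9 for Slc2a3 (mKate2- and mKate2+ cells). Each had P = 0.1 in the exact two-sided permutation test, the smallest value that 3 against 3 libraries allow, and an adjusted value of 0.2 over the 12 share tests. The Mpc2 share of the 2 carrier genes was 20.0% ± 3.88, 22.3% ± 4.16 and 26.1% ± 5.47 in mKate2- cells, mKate2+ cells and astrocytes, with overlapping ranges (exact permutation P = 0.2 and 0.3 against astrocytes). The size of a share depended on the length used. With the longest coding transcript in place of all exons, the astrocyte share was 13.5% for Ldhb and 42.0% for Slc2a3. In mKate2- and mKate2+ cells these shares were 0.69% and 0.68% for Ldhb and 3.41% and 3.27% for Slc2a3. The Mpc2 shares were 45.0%, 48.5% and 53.5%, because the annotated exons of Mpc2 cover 7344 bases and its longest coding transcript 1025.

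**Figure D3:**
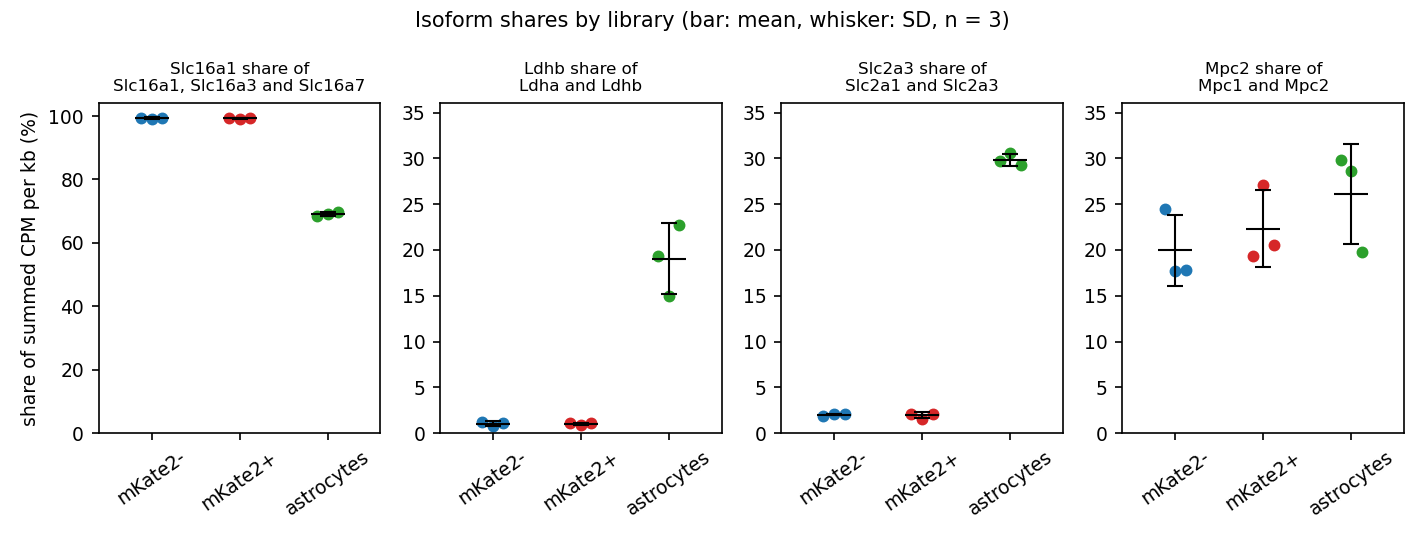
Share of each isoform gene in its family's summed CPM per kb of exonic length (%), with 1 point per library, a bar at the mean and whiskers for the SD of 3 libraries; the first panel has its own axis range. SB28 points lie near 99% for Slc16a1 and near 1% to 2% for Ldhb and Slc2a3, apart from the astrocyte points, while the Mpc2 panel shows overlapping populations.

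The order of the levels per kb also differed. In mKate2- cells it ran from Ldha (584 ± 74.1 CPM per kb) and Bsg (185 ± 21.3) to Slc16a1 (99.9 ± 5.12) and Slc2a1 (92.9 ± 14.6), whose ranges overlapped, and then dropped to Mpc1 (8.48 ± 0.44), Ldhb (6.04 ± 0.90), Mpc2 (2.13 ± 0.49), Slc2a3 (1.94 ± 0.38), Slc16a3 (0.61 ± 0.25) and Slc16a7 (0.00173 ± 0.0015). Mpc2 and Slc2a3 overlapped as well. In mKate2+ cells the order was alike, except that Slc2a1 (102.4 ± 20.4) and Slc16a1 (102.3 ± 9.85), which overlapped, changed places. In astrocytes Ldha (532.7 ± 106.8) and Bsg (276 ± 12.9) were followed by Ldhb (122.2 ± 14.6), Slc2a1 (57.5 ± 7.67), Slc2a3 (24.5 ± 4.06), Slc16a1 (21.4 ± 1.28), Mpc1 (12.3 ± 3.72), Slc16a3 (9.21 ± 0.51), Mpc2 (4.16 ± 0.17) and Slc16a7 (0.32 ± 0.05). There, Slc2a3 overlapped with Slc16a1 and Mpc1 with Slc16a3. With the longest coding transcript as length, Mpc2 ranked 6th in all 3 populations and Ldhb 7th in both SB28 populations. Slc2a1 then ranked 3rd and Slc16a1 4th in mKate2- cells, and Slc16a1 ranked 8th and Slc16a3 9th in astrocytes.

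Between mKate2+ and mKate2- SB28 cells, none of the genes differed by the thresholds used for this comparison (fold change above 1.5, unadjusted P value below 0.05 and mean normalized count above 50). Of the 9 members tested, 0 were called higher or lower, 0 had an unadjusted P value below 0.05 with edgeR and 0 were called with DESeq2, where 0.194% of the 11854 genes tested were called higher, 0.169% lower and 2.03% had an unadjusted P value below 0.05. The smallest unadjusted edgeR P values were 0.165 for Mpc2 (log2 fold change 0.39, SE 0.25) and 0.172 for Mpc1 (0.16, SE 0.11), and no adjusted value was below 0.923. Without a filter on low counts, Mpc2 had an unadjusted edgeR P value of 0.0253 (0.40), at an adjusted value of 0.832. All 9 log2 fold changes were positive, from 0.08 for Slc16a1 to 0.39 for Mpc2. Of these genes, Bsg, Ldha, Mpc1, Mpc2 and Slc2a1 had their highest SB28 value in mKate2+ replicate 2, as did Slc16a7, which was not tested. How many of all genes were highest in this library was not counted. Without that library, 6 of 9 were positive, their median fell from 0.16 to 0.01, and those of Bsg, Ldha and Slc2a1 were -0.05, -0.09 and -0.02.

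The isoform shares of mKate2+ and mKate2- cells differed by -0.08 percentage points for Slc16a1, -0.02 for Ldhb, -0.08 for Slc2a3 and 2.33 for Mpc2, with exact permutation P values of 0.5, 0.9, 1 and 0.5. Among the 6 SB28 libraries, the highest value was 1.21 times the lowest for Slc16a1 and 1.16 times for Mpc1, against 2.06 times for Slc16a3 and 2.01 times for Mpc2. The ranges of the 2 SB28 populations overlapped for each of the 10 genes, among them Slc16a7 with 0 to 3 counts per library. The share of all genes with such an overlap was not counted, so this does not set the 10 genes apart.

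**Figure D4:**
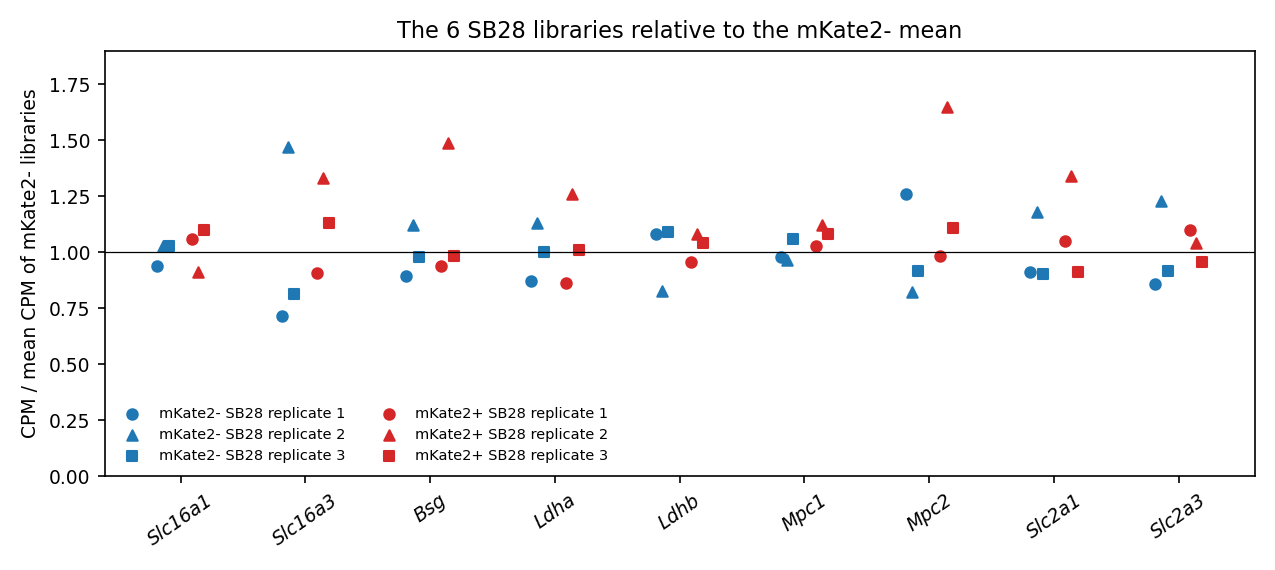
CPM of 9 genes in each of the 6 SB28 libraries divided by the mean of the 3 mKate2- libraries (linear axis from 0), with color for the population and marker shape for the replicate; Slc16a7, at 0 to 3 counts, is left out. The red triangles of mKate2+ replicate 2 are the highest points for Bsg, Ldha, Mpc1, Mpc2 and Slc2a1 and the lowest for Slc16a1. With all 6 libraries the populations overlap for each gene, but without this library the mKate2+ points of Slc16a1 (1.06 and 1.10) lie above the mKate2- points (0.94 to 1.03).

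Genes related to these 10 were then described from fixed lists, whose counts stand beside the 11.5% and 12.2% of all genes called higher and the 22.4% and 22.8% called lower in mKate2- and mKate2+ cells. A gene under 1 CPM in 1 population entered a test only through the other population, so the filter set its direction. Among 17 other monocarboxylate transporter and chaperone genes, 9 were tested in mKate2- cells (1 called higher, 4 lower) and 10 in mKate2+ cells (2 higher, 4 lower). Slc16a13, a transporter gene of the same family, was higher in SB28 cells: it was at 59.5 ± 4.23 and 61.0 ± 2.30 CPM in mKate2- and mKate2+ cells and 16.7 ± 1.68 CPM in astrocytes (log2 fold changes 1.85 and 1.94, edgeR adjusted P = 2.02e-05 and 3.33e-05). Slc16a9 was at 8.04 ± 0.82 CPM in astrocytes and 0.07 ± 0.09 and 0.04 ± 0.01 CPM in SB28 cells. Slc16a4 was lower (log2 fold changes -2.23 and -2.97). Slc16a10, an aromatic amino acid transporter, was called higher in mKate2+ cells (2.40, edgeR adjusted P = 0.00736) and was below the filter in mKate2- cells. It was at 1.15 ± 0.34 CPM in mKate2+ cells, 0.85 ± 0.30 in mKate2- cells and 0.23 ± 0.15 in astrocytes. It entered the test only through the mKate2+ libraries, and the SB28 populations did not differ in it (edgeR unadjusted P = 0.239). The lactate receptor gene Hcar1 had 0 counts in every library, which allows up to 0.0764 to 0.123 CPM.

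In the list of other glucose transporter genes and their regulators, most genes tested were lower in SB28 cells. Of 14 further glucose transporters and regulators, 8 were tested. In each comparison with astrocytes 7 were called lower and 0 higher, with median log2 fold changes of -2.56 and -2.23. Slc2a12 and Slc2a13, both called lower, were below 1 CPM in SB28 cells (means 0.13 and 0.09, and 0.21 and 0.33). They passed the filter only through the astrocytes (5.87 and 1.42 CPM), so the filter set their direction. Txnip, whose product promotes the removal of glucose transporters from the membrane, was at 215 ± 59.0 CPM in astrocytes and 23.8 ± 8.91 and 21.1 ± 2.77 CPM in SB28 cells (log2 fold changes -3.16 and -3.27). Its relative Arrdc4 was at 30.3 ± 5.14 against 5.60 ± 0.86 and 5.27 ± 1.52 CPM. Of the 3 other lactate dehydrogenase genes only Ldhd, the D-lactate dehydrogenase, was tested, and it was higher in SB28 cells (1.32 and 1.36, edgeR adjusted P = 0.000524 and 0.000480).

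The steps next to lactate and pyruvate were counted in the same way. Of 18 glycolytic enzyme genes, 0 were called higher and 3 lower in each comparison with astrocytes: Aldoc, Eno2 and Pfkfb3. Eno2, an enolase gene known from neurons, was at 62.5 ± 9.02 CPM in astrocytes against 7.27 ± 1.02 and 6.30 ± 1.92 CPM (log2 fold changes -3.09 and -3.24). Pfkfb3, whose product raises the activator of phosphofructokinase, was at 48.2 ± 27.7 against 4.60 ± 0.77 and 4.23 ± 0.87 CPM (-3.37 and -3.43). Of 18 genes of mitochondrial pyruvate use, 2 were called higher and 4 lower, shares near those of all genes. By the adjusted P value alone, 10 were higher and 4 lower in each comparison. All genes tested were higher by that rule in 29.3% and 28.0% of cases and lower in 33.8% and 32.1%. The 2 called higher were Me2, the mitochondrial malic enzyme (1.56 and 1.71), and Gpt2, which turns pyruvate and glutamate into alanine and 2-oxoglutarate (1.76 and 1.74). Pdk2, a kinase that inhibits pyruvate dehydrogenase, was lower (-3.31 and -3.19), as was Pcx, pyruvate carboxylase (-1.56 and -1.43).

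Cells that reduce pyruvate to lactate regenerate NAD+ in the cytosol, as the NADH shuttles do. Of 9 shuttle genes, 3 were called higher and 1 lower in each comparison. Slc25a13, the aspartate-glutamate carrier citrin, was at 156 ± 3.33 and 161.2 ± 10.1 CPM in SB28 cells and 32.0 ± 4.95 CPM in astrocytes (log2 fold changes 2.30 and 2.41), and Got1, the cytosolic aspartate aminotransferase, was higher as well (1.54 and 1.73). Gpd1, the cytosolic glycerol-3-phosphate dehydrogenase, was lower (-3.53 and -4.39), at 9.55 ± 8.06 CPM in astrocytes. By these fold changes its mean in SB28 cells was under 1 CPM, so the filter on low counts favored a call in this direction.

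Of 9 transcription factor genes known to act on such genes, 8 were tested, and 2 were called higher and 2 lower in each comparison. Myc was at 127.7 ± 3.91 and 118.7 ± 7.73 CPM in SB28 cells and 42.1 ± 10.6 CPM in astrocytes, and Hif1a at 323.1 ± 14.9 and 304.3 ± 32.8 against 158.9 ± 38.1 CPM (log2 fold changes 1.04 and 1.01). Epas1, which encodes the related HIF-2α, was at 56.1 ± 17.3 CPM in astrocytes and 0.88 ± 0.15 and 0.91 ± 0.26 CPM in SB28 cells, and Ppargc1a, the coactivator of mitochondrial biogenesis, at 21.3 ± 2.59 against 0.23 ± 0.11 and 0.24 ± 0.21 CPM. Ppargc1a passed the filter on low counts only through the astrocytes, so the filter set the direction of its call. The SB28 means of Epas1 were also under 1 CPM. No gene of any of these lists was called between mKate2+ and mKate2- cells. The lists were counted, not tested as sets.

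**Figure D5:**
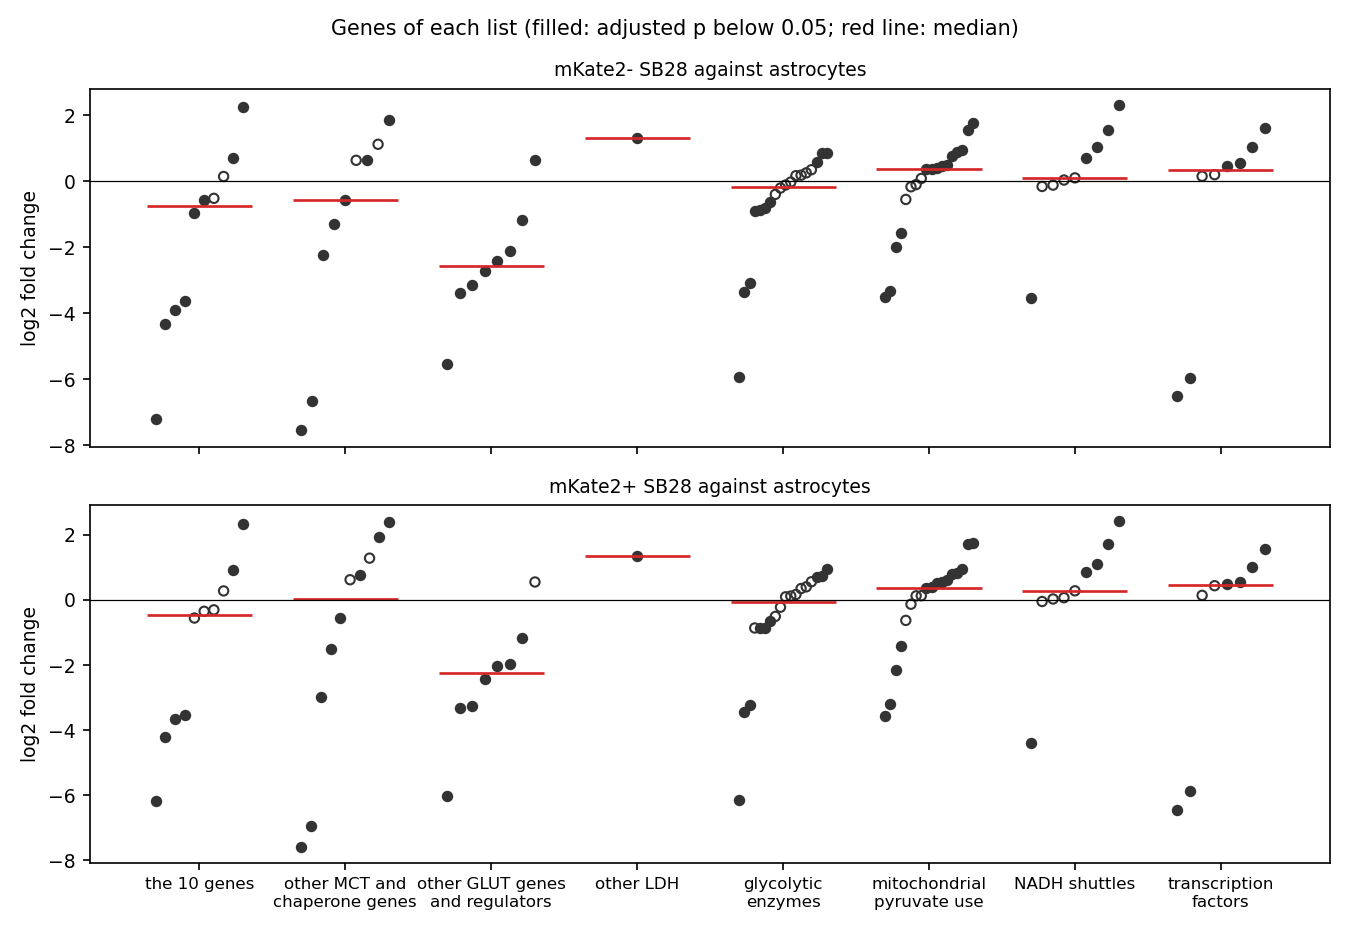
Log2 fold change (edgeR) of every tested gene of each list against astrocytes, for mKate2- SB28 cells (top) and mKate2+ SB28 cells (bottom), which share the astrocyte libraries; filled points have an adjusted P value below 0.05 and the red line is the list's median. Other glucose transporter genes and their regulators lie mostly below 0 (medians -2.56 and -2.23), whereas glycolytic enzymes lie around 0 with 3 genes far below.

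Profiles over the 9 libraries were compared by the Euclidean distance between log2 CPM values centered on each gene's mean, among 13450 genes. The gene closest to Slc16a3 was Slc2a3, another of the 10 (distance 0.74). The closest to Slc16a1 was Syt13 (0.25), to Ldhb Gm45470 (0.46), to Slc2a3 Nudt7 (0.59), to Slc2a1 Fdx1 (0.28), and to Slc16a7 Hist1h1c (0.79). Ldha was closest to Pdlim2 (0.27), Bsg to B2m (0.22), Mpc1 to Smad3 (0.24) and Mpc2 to D330023K18Rik (0.36). With 3 populations of 3 libraries, many genes share such a profile, and the distances are a description only.

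Some reads may be shared with similar or overlapping genes. Ldha has 13 processed pseudogenes with at least 90% identity over 200 bases, and the most counted of them had 74 counts in all libraries, 0.0131% of the 564747 counts of Ldha. Mpc1-ps, identical to Mpc1 over 261 bases, had 486 counts, or 7.90% of those of Mpc1, so the level of Mpc1 is the least certain in this respect. Gm5514, a copy of Ldhb (98.0% identity), had 47 counts, 0.242% of those of Ldhb, and Gm31931, a copy of Mpc2, had 0. Because the use of strand in counting is not given in the sources used here, reads from the 480 exonic bases that Mpc1 shares with 4930506C21Rik on the opposite strand, from the 179 that Slc16a7 shares with Gm47862 and from the 105 that Slc2a1 shares with Gm12868, cannot be assigned with certainty.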

How the data were processed

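The 9 libraries were taken by their labels' names, because the gates written there give CellTrace Violet to the tumor cells whereas the methods stain the astrocytes. The authors trimmed reads with Trimmomatic 0.36, mapped them to GRCm38 with STAR 2.5.2b and counted reads per gene with featureCounts (Subread 1.5.2); the deposited values are these counts, without normalization. Names, positions and lengths came from GENCODE M21 (49056 of 49315 IDs named) and promoters from RefSeq.

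Each comparison used its 6 libraries, genes above 1 CPM in at least 2 of them, TMM normalization and edgeR 4.0.16 (R 4.3.3), with Benjamini-Hochberg adjustment over all genes tested. Shares were compared with exact two-sided permutation tests (SciPy 1.17.1). The 10 genes, lists and tests were chosen with earlier results of these data known. All 10 genes are described; from each list, up to 2 genes per direction with the smallest adjusted P values are named, and Aldoc and Hcar1 were named after their values were seen. Alternatives were DESeq2 1.42.0, upper-quartile normalization, no filter, at least 10 counts in every library, 1 fit of all 9 libraries, a replicate block, a gene length trend removed (loess, span 0.3, prior count 2), other lengths for shares, and each library left out. Same-population libraries differed by 15.8 to 134 times counting noise (chi-square per degree of freedom), so the spread between replicates limits precision. The values of some list genes are not reported here.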

Additional observations from a re-analysis of the deposited data

How the results depend on the processing

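The calls and directions of Slc16a1, Slc16a3, Ldhb and Slc2a3 against astrocytes held under every alternative. Slc16a7 was called lower in each alternative that could fit it, but wherever low counts were filtered the filter set its direction. The minimum of 10 counts in every library left no value for it. With the gene length trend removed, 2 members were called higher in each comparison with astrocytes, since Slc2a1 exceeded a log2 fold change of 1. Relative to the median of all genes, Slc2a1 did not rise with that step (0.747 to 0.711 in mKate2- cells and 0.935 to 0.878 in mKate2+ cells). In mKate2+ cells 1 to 2 were called higher with a library left out (2 without astrocyte replicate 2 or mKate2+ replicate 3). In mKate2- cells 4 members were called lower, and 5, with Mpc2, with upper-quartile normalization and without mKate2- replicate 1; with at least 10 counts in every library Mpc2 was called and Slc16a7 was not tested. Signs changed for Bsg and Mpc1 in mKate2+ cells with the length trend removed (0.0823 and 0.0978). Relative to the median of all genes, which that step raised, both stayed negative (-0.386 and -0.371). The sign of Ldha changed in mKate2- cells with a library left out (-0.0178 to 0.238). Between mKate2+ and mKate2- cells, 43 of all genes met the thresholds (23 higher, 20 lower, or 0.194% and 0.169% of 11854 tested). With DESeq2 83 did (62 and 21), and without a filter 259 (224 and 35). With a library left out 22 to 380 did (22 without mKate2+ replicate 2, 380 of 11796 without replicate 1, 269 without replicate 3). In each, 0 members were called, which at such small shares of all genes does not set the members apart. In this comparison, log2 fold changes ranged with a library left out from 0.0122 to 0.615 for Slc16a3, 0.0752 to 0.594 for Mpc2, -0.0543 to 0.395 for Bsg, -0.0946 to 0.264 for Ldha, -0.0214 to 0.168 for Ldhb, -0.0241 to 0.341 for Slc2a1 and -0.00124 to 0.271 for Slc2a3, and Ldhb was at -0.025 with the length trend removed. The share differences ranged from -0.206 to 0.0304 percentage points for Slc16a1, -0.164 to 0.0915 for Ldhb, -0.176 to 0.0989 for Slc2a3 and -0.0464 to 4.57 for Mpc2. The causes were not tested.

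Same-numbered libraries deviated together with r between -0.147 and 0.251 over 13450 genes, and the labels do not say that a number marks a co-culture. The values in the report therefore leave out that the populations shared co-cultures. With the number as a replicate block, 1 member was called higher and 4 lower in each comparison with astrocytes and 0 between SB28 populations, and Mpc1 in mKate2- cells (-0.48, edgeR adjusted P = 0.0443) and Mpc2 in mKate2+ cells (-0.60, edgeR adjusted P = 0.0389) passed the adjusted P value. Depth limits only Slc16a7 in SB28 cells, at 0 to 3 counts per library. With 3 libraries a population, exact tests of shares cannot go below 0.1. Paired by number, the shares of Slc16a1, Ldhb and Slc2a3 against astrocytes each had P = 0.25 in the exact two-sided sign-flip permutation test, the smallest that 3 pairs allow.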
